A study of Mus musculus with 2 samples.

Results

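The genes described here encode the translation initiation factors (eIFs) and translation elongation factors (eEFs) of the mouse, together with the kinases, repressors and methyltransferases that carry the same symbol stems. They were taken by name: every protein-coding gene whose symbol begins with Eif and a digit from 1 to 6, or with Eef and 1 or 2, leaving out chromosomes X and Y. This gave 65 of the 55536 genes of the GENCODE M21 annotation. The study sequenced polyadenylated RNA from whole forebrain of B6NCrl mice on the day of birth (postnatal, 0 days), with no genetic change or treatment named in the labels. Its 2 libraries, pup 1 (replicate 1) and pup 3 (replicate 2), were each made from the forebrain of 1 animal, with 10 ng of RNA as input and oligo-dT as primer. They form 1 group, so differences between the pups are described by size and no p-value is given. The sex of the pups was not recorded. Both carry a single donor identifier in the labels, so the spread between them may not stand for the spread between litters.

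In initiation, eIF4F binds the mRNA cap, and the small ribosomal subunit, loaded with eIF1, eIF1A, eIF3, eIF5 and the ternary complex of eIF2, GTP and initiator tRNA, scans to a start codon, where eIF5B joins the large subunit. In elongation, eEF1A delivers aminoacyl-tRNA, the eEF1B complex reloads eEF1A with GTP, eEF2 moves the ribosome along and eIF5A helps at slow peptide bonds. Cells adjust this machinery through 4E-binding proteins, eIF2 alpha kinases and the eEF2 kinase, and neurons and muscle are known to exchange the widespread eEF1A1 for its paralog eEF1A2 as they mature after birth.

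The libraries held 40964891 and 41230878 expected counts, which are read counts with ambiguous reads divided among their possible sources. Levels are given in TPM, a length-corrected share of each library that permits genes to be compared with each other, with SDs over the 2 pups. The median of a group is taken over the mean levels of its genes, and its SD is that of the 2 pup medians. All 7 forebrain markers were at 1 TPM or more in both pups, and none of 7 mid- and hindbrain markers was (summed level 1.07 and 0.72 TPM, with Hoxb3 and Hoxb4 at 0). In bulk tissue, fewer cells of a type and less RNA per cell cannot be told apart.

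Of the 65 genes, 63 were detected at 1 TPM or more in both pups, whereas 59.5% of protein-coding genes were. The remaining 2 were Eif4e1b, the oocyte cap-binding paralog, which had 0 counts in both libraries (a count of 0 allows up to 3), and Eef1akmt3, an eEF1A lysine methyltransferase, with 8 and 5 counts (0.12 and 0.06 TPM). Together the 65 genes held 1.28% of the counts of pup 1 and 1.41% of those of pup 3, with 95% Wilson intervals of 1.27 to 1.28 and 1.40 to 1.41. Their share of TPM was 1.24% and 1.25%. Their median level was 66.9 ± 0.693 TPM, against 3.77 ± 0.788 TPM over all protein-coding genes, and 53 of them had at least 1000 counts in both pups.

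The pair that carries aminoacyl-tRNA to the ribosome was represented almost wholly by Eef1a1. The coding starts of both paralogs are printed here to show how far the sequences differ in that stretch. Each line holds the first 90 coding bases, from exon 2 of the transcript named, read 5′ to 3′ on the minus strand of mm10, with capitals marking the 15 bases that differ between the lines.
Eef1a1-201, chr9:78480565-78480654: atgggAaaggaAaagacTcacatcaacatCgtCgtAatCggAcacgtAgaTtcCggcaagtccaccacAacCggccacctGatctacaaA
Eef1a2-201, chr2:181155317-181155406: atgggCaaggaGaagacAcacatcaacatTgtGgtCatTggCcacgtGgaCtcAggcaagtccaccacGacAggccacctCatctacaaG
Over the whole coding sequence the paralogs were identical at 79.96% of 1392 aligned columns, with a longest identical run of 23 bases, and no stretch of 100 bases was shared.

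Eef1a1 (ENSMUSG00000037742.14, chr9:78478449-78489151, minus strand) had levels of 2464 TPM (pup 1) and 2611 TPM (pup 3), with a mean of 2538 ± 104. It was the highest of all 65 genes in both pups and alone held 19.9% and 20.9% of their summed TPM. Eef1a2 (ENSMUSG00000016349.10, chr2:181147653-181157014, minus strand) stood at 14.5 and 10.2 TPM, a mean of 12.3 ± 3.05, from 750 and 593 counts. Eef1a1 therefore exceeded Eef1a2 by 170-fold in pup 1 and 257-fold in pup 3, a log2 ratio of TPM of 7.40 and 7.99 (mean 7.70 ± 0.42). As a share of the counts of the pair, Eef1a2 made up 0.774% for pup 1 and 0.509% for pup 3, with 95% Wilson intervals of 0.721 to 0.831 and 0.470 to 0.552. These intervals do not overlap, but they cover counting error only, and with 1 library for each pup the difference has no replicate check.

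Reads were less easily placed for Eef1a1 than for Eef1a2. In the annotation, 26.67% of the 100-base windows of the leading Eef1a1 transcript also occur in 1 or more of 10 other annotated genes, while no window of Eef1a2 does. The deposited posterior SD of the Eef1a1 count was 10.3 and 11.3 reads on 96133 and 115849, so the placement recorded as uncertain was small beside the total. Skeletal and heart muscle also hold Eef1a2. Of 8 muscle markers, 2 were detected, and the 8 had a summed level of 21.6 and 17.8 TPM, of which Acta1 gave 16.9 and 13.6, while Ckm, a defining gene of muscle, stood at 0.07 and 0.08. The neuronal markers, all 6 detected, summed to 3767 and 3223 TPM. Both this sum and Eef1a2 were lower in pup 3, as most genes were, and the part of neurons in the level of Eef1a2 was not tested.

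The elongation factors as a group (7 genes) held 29.98% and 30.8% of the summed TPM of the 65 genes. Behind Eef1a1, the nucleotide exchange subunit Eef1b2 stood at 394 and 431 TPM and the translocase Eef2 at 401 and 370 TPM. Eef1g, the scaffold subunit of eEF1B, stood at 222 and 199 TPM, and Eef1d, the second exchange subunit, at 134 in both pups. The 3 eEF1B genes thus spread over 3.07-fold (coefficient of variation 56.9%), with Eef1b2 highest and Eef1d lowest in each pup. On protein-coding transcripts alone the spread was narrower: Eef1b2 stood at 215 and 249 TPM, Eef1g at 214 and 196, and Eef1d at 129 and 128. In counts Eef1b2 (7643 and 9449) was below Eef1g (9993 and 10242). Eef1e1, which encodes a subunit of the multi-tRNA-synthetase complex, stood at 87.7 and 92.2 TPM. Of the Eef1g transcript's 100-base windows, 49.41% were shared with 4 other annotated genes, so its level is less certain than that of Eef1d. The deposited posterior SD was 47.4 and 41.0 reads for the Eef1g count, and 0.52 and 0.33 reads for that of Eef1d. The placement recorded as uncertain was thus small beside the Eef1g counts.

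Among the 6 modifiers of elongation factors, the eEF1A lysine methyltransferases Eef1akmt1 (68.5 and 67.5 TPM) and Eef1akmt2 (63.8 and 68.3 TPM) were highest. Eef2k, the kinase that inhibits eEF2, stood at 29.3 and 25.2 TPM. Its substrate Eef2 exceeded it by 13.7- and 14.7-fold, a log2 ratio of 3.82 ± 0.07 that was among the steadiest of the ratios between the pups. Eef2kmt, the eEF2 lysine methyltransferase, stood at 5.52 and 5.34 TPM.

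**Figure D1:**
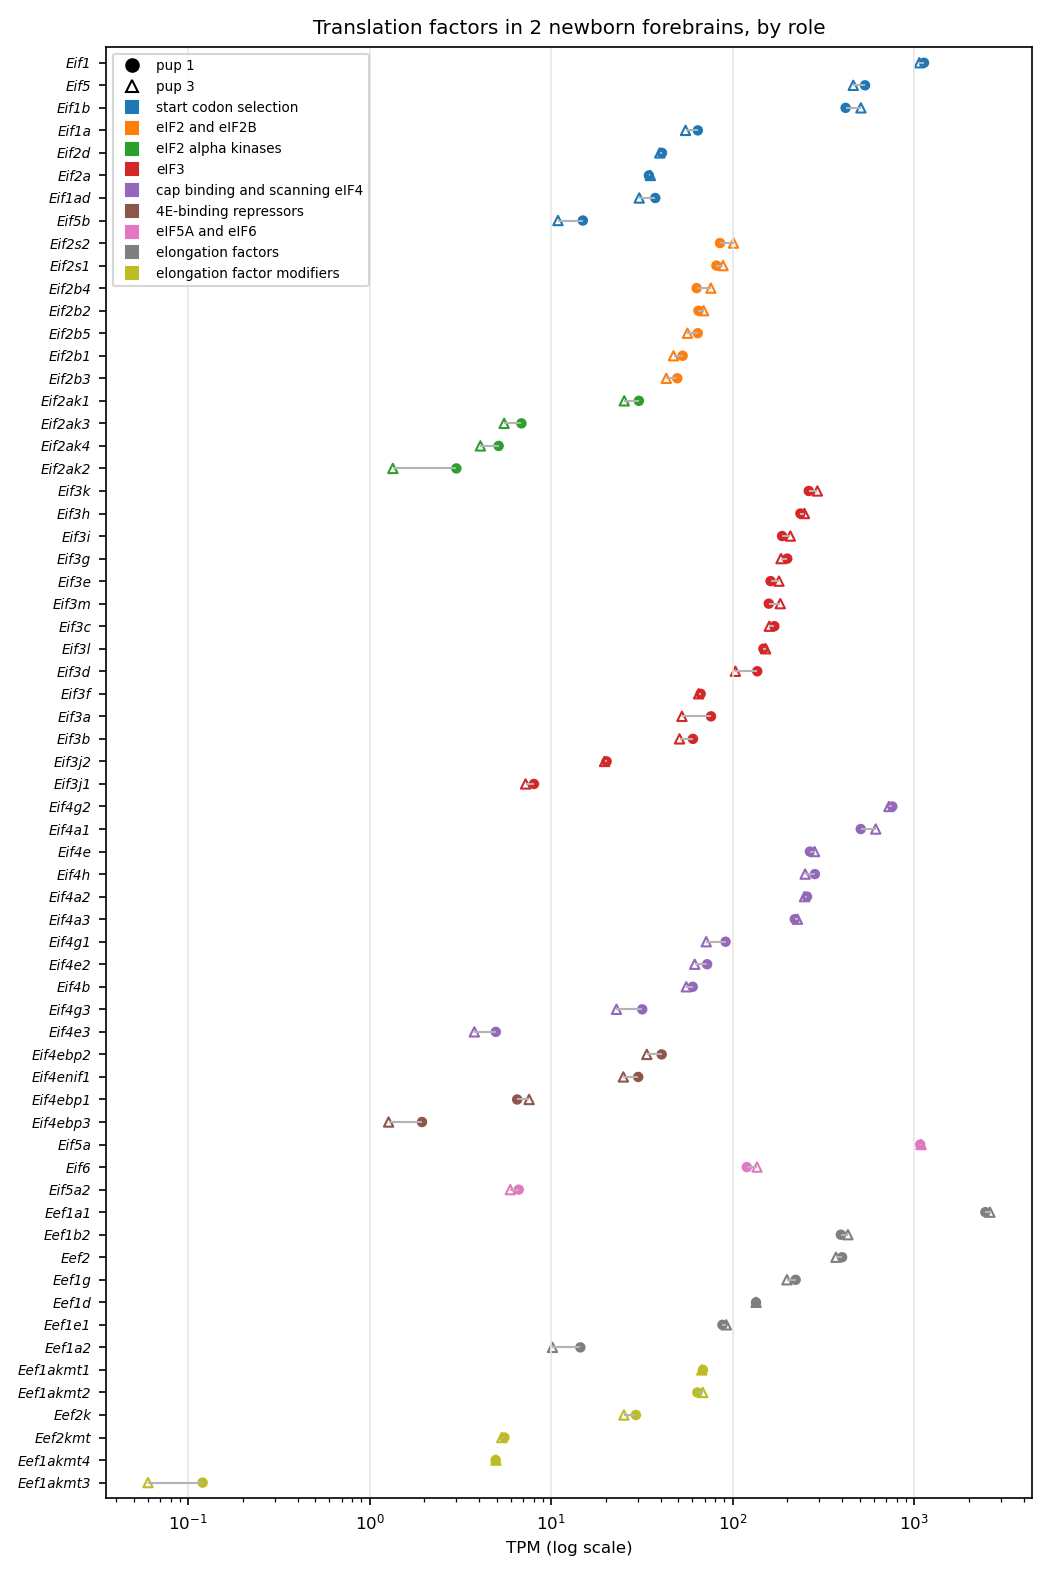
Level of each gene in TPM on a log scale, with circles for pup 1, triangles for pup 3 and colours for the role; Eif4e1b, at 0 in both pups, has no place on the axis. Eef1a1 lies farthest to the right and Eef1akmt3 farthest to the left, and most pairs of symbols lie closer together than the genes of a role group do.

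Start codon selection held the gene with the second highest mean level. Eif1, whose product guards against initiation at a wrong codon, stood at 1132 and 1067 TPM (1099 ± 46.2), and its paralog Eif1b at 419 and 508 TPM (463 ± 63.3). As deposited, Eif1 was lower and Eif1b higher in pup 3, and their log2 ratio was 1.43 in pup 1 and 1.07 in pup 3 (1.25 ± 0.26). Their coding starts follow, since they are the most alike of the pairs compared here apart from Eif3j1 and Eif3j2: the first 90 coding bases, from exons 1 and 2, read 5′ to 3′ on the plus strand of mm10, with capitals at the 13 bases that differ. The coordinates run from the first to the last base and so include an intron.
Eif1-201, chr11:100320130-100320724: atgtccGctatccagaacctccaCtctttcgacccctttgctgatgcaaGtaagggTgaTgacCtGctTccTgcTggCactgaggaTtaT
Eif1b-201, chr9:120492811-120494165: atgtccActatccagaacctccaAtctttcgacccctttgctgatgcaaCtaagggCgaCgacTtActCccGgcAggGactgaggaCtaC
Over the whole coding sequence the pair was identical at 81.29% of positions, with no shared stretch of 100 bases.

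Eif5, the GTPase-activating protein of eIF2, stood at 536 and 461 TPM, and Eif1a, the partner of eIF1 on the small subunit, at 64.2 and 54.9 TPM. Eif5b, the GTPase of subunit joining, was the lowest of the 8 genes of start codon selection at 14.9 and 10.9 TPM. The group therefore spanned 85.2-fold between Eif1 and Eif5b.

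Genes for eIF2 and its exchange factor eIF2B lay in a narrow band when all transcripts of each gene were counted. The alpha subunit Eif2s1 stood at 81.3 and 88.4 TPM and the beta subunit Eif2s2 at 85.1 and 101 TPM. On protein-coding transcripts alone they lay farther apart, Eif2s1 at 40.1 and 42.4 TPM and Eif2s2 at 84.6 and 101 TPM. The gamma subunit gene is sex-linked and so falls outside the rule. By mean level, the 5 eIF2B subunits ran from Eif2b3 at 49.5 and 43.0 TPM to Eif2b4 at 63.3 and 75.7 TPM. Eif2b2, at 64.7 and 69.1 TPM, was above Eif2b4 in pup 1 and below it in pup 3. On protein-coding transcripts alone Eif2b2, at 49.3 and 49.6 TPM, was below Eif2b4, at 61.0 and 72.2 TPM, in both pups. The means of the 5 differed by 1.502-fold, with a coefficient of variation of 17.4%, the smallest of the complexes compared.

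The 4 eIF2 alpha kinases, which turn stress into reduced initiation, had a median of 5.39 ± 0.852 TPM, and each was below the substrate gene Eif2s1 (81.3 and 88.4 TPM). Eif2ak1, the haem-regulated kinase, stood at 30.4 and 25.2 TPM. On protein-coding transcripts alone it was nearer its substrate, at 29.2 and 25.0 TPM against 40.1 and 42.4 TPM for Eif2s1. Eif2ak3, the kinase of the endoplasmic reticulum, stood at 6.85 and 5.50, and Eif2ak4, the amino acid sensor, at 5.13 and 4.07 TPM. Eif2ak2, the kinase activated by double-stranded RNA (chr17:78852564-78882573, minus strand), was the lowest at 3.00 and 1.34 TPM, from 150 and 61 counts. All 4 were lower in pup 3 than in pup 1 as deposited, a direction shared by most genes, since 18% of protein-coding genes were higher in pup 3.

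The 14 eIF3 genes had a median of 156.94 ± 1.84 TPM over their mean levels (pup medians 152.7 and 155.3) and held 15.2% of the summed TPM in each pup. With the older M4 annotation that median was 137 TPM, a change larger than the SD between the pups. The highest were Eif3k at 262 and 293 TPM, Eif3h at 236 and 248, Eif3i at 187 and 208 and Eif3g at 200 and 184. Among the 12 subunits other than the loosely bound eIF3J, Eif3b, a core scaffold subunit, was lowest at 60.4 and 50.9 TPM. These 12 spread over 4.99-fold (coefficient of variation 44.8%), wider than eIF2B. The other core scaffold gene, Eif3a, at 75.9 and 52.5 TPM, was also among the lowest, with 33.8% of its TPM on retained-intron transcripts. On protein-coding transcripts alone Eif3a stood at 48.7 and 35.9 TPM, below Eif3b at 60.05 and 50.89, so which of them is lowest depends on the transcripts counted.

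Eif3j1 and Eif3j2 stood at 8.03 and 7.22 TPM and at 20.2 and 19.7 TPM. Their log2 ratio was -1.32 and -1.43, but it rests on few distinguishing bases. The coding sequences were identical at 99.24% of positions, with a run of 784 identical bases, and 83.99% of the windows of the Eif3j2 transcript and 47.61% of those of Eif3j1 occurred in other genes. The deposited posterior SDs of their counts were 28.2 to 30.4 reads on totals of 1037 to 1319. How the reads of this pair were divided is therefore uncertain.

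Cap binding and scanning was led by Eif4g2, the eIF4G relative that does not bind the cap-binding protein, at 757 and 725 TPM. It exceeded Eif4g1, the main scaffold of eIF4F (91.3 and 71.4 TPM), by 8.29- and 10.2-fold (log2 ratio 3.20 ± 0.21). Eif4g1 in turn exceeded Eif4g3 (31.7 and 22.9 TPM) with a log2 ratio of 1.58 ± 0.08. The order Eif4g2, Eif4g1, Eif4g3 was the same in both pups, and the 3 genes spanned 27.1-fold. The group of 12 held 20.6% and 20.5% of the summed TPM.

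The helicase genes stood at 507 and 614 TPM for Eif4a1, 257 and 249 TPM for Eif4a2, and 220 and 227 TPM for Eif4a3, whose product works in the exon junction complex. Eif4a1 over Eif4a2 gave a log2 ratio of 0.98 and 1.30 (1.14 ± 0.23). Eif4h, which stimulates the helicase, stood at 284 and 251 TPM. For Eif4a1, 60.84% of the windows of the leading transcript were shared with the genes Eif4a-ps4 and Gm5513, and the deposited posterior SD of its count was 36.2 and 37.6 reads on 21682 and 29624.

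The cap-binding protein gene Eif4e stood at 266 and 282 TPM, and its relatives Eif4e2 and Eif4e3 at 72.3 and 61.7 TPM and at 4.95 and 3.77 TPM. Eif4e over Eif4e2 gave a log2 ratio of 2.04 ± 0.22, and 0.91 when the older M4 annotation was used. The 4E-binding repressors were far lower. Eif4ebp2, known as the main 4E-BP of brain, stood at 40.6 and 33.6 TPM, Eif4ebp1 at 6.49 and 7.55, and Eif4ebp3 at 1.94 and 1.27. The sum of these 3 was 49.0 and 42.4 TPM, so Eif4e exceeded it by 5.43- and 6.65-fold in TPM. That TPM lay largely on short Eif4e transcripts: Eif4e-205 (729 bases) held 34.83% and 37.35%, and Eif4e-206 (526 bases) 33.3% and 32.62%. Eif4e-201, of 4991 bases, held 17.53% and 16.72% but had 5956 and 6792 counts. In counts Eif4e had 9121 and 10603, Eif4ebp2 2291 and 2114, Eif4ebp1 170 and 247, and Eif4ebp3 33 and 24. Eif4ebp2 over Eif4ebp1 gave a log2 ratio of 2.63 and 2.14 (mean 2.38 ± 0.34), which was 3.42 in counts and 4.09 on protein-coding transcripts alone. Eif4enif1, the importer of eIF4E into the nucleus, stood at 30.1 and 25.0 TPM.

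Eif5a, the factor modified with hypusine, stood at 1079 and 1091 TPM (1085 ± 8.46), within the pup spread of Eif1. Its paralog Eif5a2 stood at 6.62 and 5.95 TPM. The log2 ratio of 7.33 and 7.49 was close in size to that of Eef1a1 over Eef1a2: in both families 1 gene was far above its paralog, which was itself detected in both pups. In counts, which favour the longer Eif5a2 transcript, the mean ratio was 5.34. Eif6, which keeps the large ribosomal subunit from joining early, stood at 120 and 136 TPM.

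**Figure D2:**
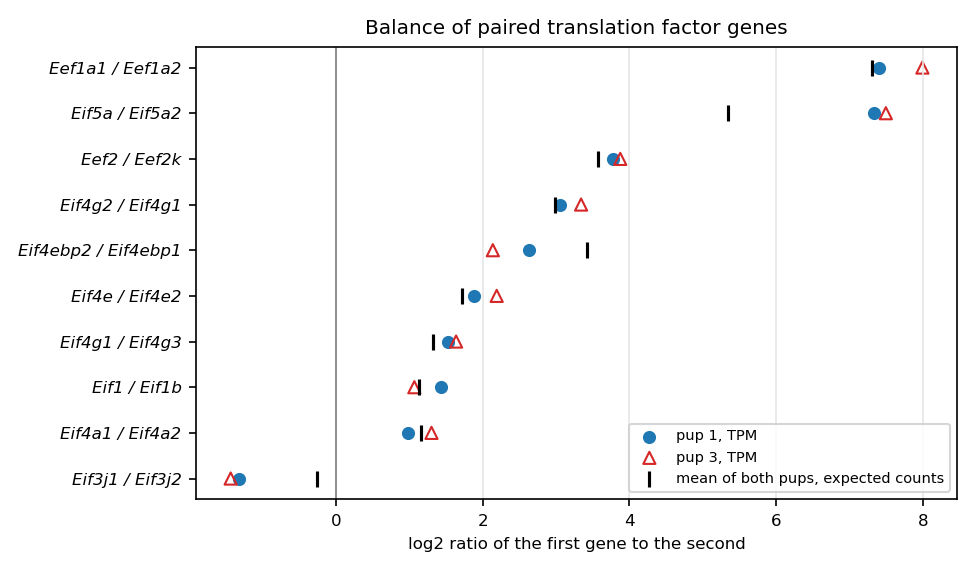
Log2 ratio of the first gene of each pair to the second within each library, with circles for pup 1 and triangles for pup 3 in TPM and a tick for the mean of both pups in expected counts. Eef1a1/Eef1a2 and Eif5a/Eif5a2 lie above 7 in TPM, and Eif3j1/Eif3j2 is the pair below 0.

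A gene's TPM sums over all of its annotated transcripts, including those not annotated as protein coding. Of the 58 genes with 5 TPM or more in both pups, 54 had the same leading transcript in both, and 55 had a leading transcript annotated as protein coding. The median share of TPM on protein-coding transcripts was 95.7%. In 35 genes that share was 90% or more, and in 13 it was under 75%.

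Eif4a2 (chr16:23107444-23114136, plus strand) was lowest in this respect. Protein-coding transcripts held 17.1% of its TPM, transcripts annotated as targets of nonsense-mediated decay held 70.5% and retained-intron transcripts 12.3%, out of 25 listed transcripts. Its leading transcript, Eif4a2-210, annotated to nonsense-mediated decay, held 46.76% in pup 1 and 47.61% in pup 3. On protein-coding transcripts alone Eif4a2 stood at 45.6 and 41.0 TPM, and the log2 ratio of Eif4a1 to Eif4a2 was 3.62 instead of 1.14. Eif4a1 itself had 95.5% on protein-coding transcripts. How reads are divided among overlapping transcripts of a gene is an estimate.

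For some genes the noncoding share lay on a short transcript, where few reads give a high TPM. Eif2s1-203, a processed transcript of 433 bases, held 48.38% and 51.05% of the gene's TPM but 343 and 444 counts, whereas the protein-coding Eif2s1-201 had 3465 and 4127 counts. Eif1 resembled it: 61.4% of its TPM was on protein-coding transcripts, and Eif1-202, of 383 bases, held 34.36% and 31.59% from 2884 and 2815 counts. On protein-coding transcripts alone Eif1 still exceeded Eif1b, with a log2 ratio of 0.55.

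Eef1b2 had 56.1% of its TPM on protein-coding transcripts and 38.0% on transcripts annotated to nonsense-mediated decay, and Eif2a, an alternative initiator tRNA carrier, had 53.4% and 43.6%. Eif5 had 30.3% on retained-intron transcripts. Eif4ebp1 had 29.9% on its protein-coding transcript and the rest on the processed transcript Eif4ebp1-202. Eef1a1 had 84.8% on protein-coding transcripts, with Eef1a1-201 holding 84.08% and 85.25%. For Eif4h the leading transcript differed between the pups, Eif4h-201 holding 53.75% and 48.99% and Eif4h-205 44.61% and 50.17%, so both forms were near balance.

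**Figure D3:**
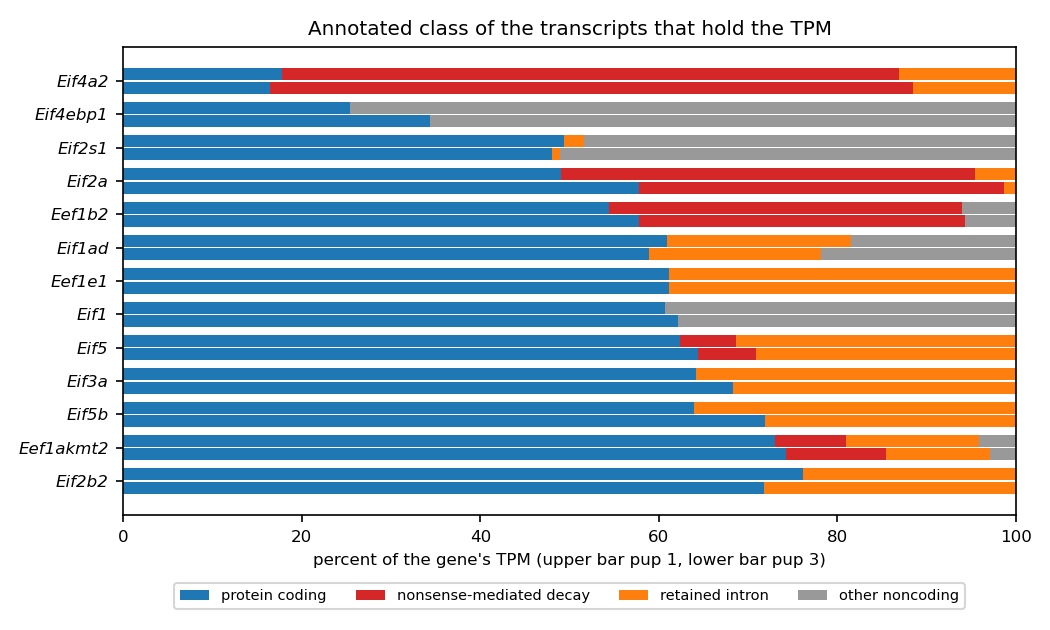
Share of the gene's TPM, in percent, on transcripts of each annotated class for the 13 genes in which protein-coding transcripts held under 75%, with pup 1 in the upper and pup 3 in the lower bar of each gene. In Eif4a2 the class annotated to nonsense-mediated decay is the widest in both pups.

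Most differences between the pups were small in fold. Differences are log2(TPM + 1) for pup 3 minus the same for pup 1, a scale that understates the change of low genes, and are given relative to the median of all 15463 genes compared, which was -0.24. None of the 63 genes compared passed 1.5-fold higher or 1.5-fold lower. Of all genes compared, 3.29% passed it higher and 4.9% lower (8.19% either way), and of protein-coding genes with a mean of 20 TPM or more, 4.21% passed it either way. Among only 63 genes, none passing lies near the share of 4.21%. The range ran from -0.54 for Eif2ak2 to 0.52 for Eif1b, and 40 of 63 differed by less than 1.2-fold. The SD of the relative difference was 0.22 over the 63 genes and 0.31 over protein-coding genes with a mean of 5 TPM or more.

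Eif2ak2 is the gene for which the scale mattered. Its share of the library's counts (CPM) gave a log2 ratio of -1.31 (95% interval -1.76 to -0.87, counting error only). With a pseudocount of 0.1, on CPM, with no minimum level or against genes of 1000 to 2000 bases, Eif2ak2 was the 1 gene past 1.5-fold lower. That length band follows its mean transcript length of 1824 bases, yet 121 and 44 of its counts lay on Eif2ak2-201, of 4313 bases. The retained-intron Eif2ak2-204, of 704 bases, held 50.29% and 57.17% of its TPM, so the comparison by length is uncertain for this gene. Eif1b and Eif4a1 were highest at 0.52 and 0.51, followed by Eif2b4 at 0.49 and Eif2s2 at 0.48. Eef1a1 stood at 0.32 and Eef1a2 at -0.23, so the 2 parts of their ratio lay on opposite sides of the all-gene median.

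Relative to the all-gene median, 47 of the 63 genes lay above 0 and 16 below, where 49% of protein-coding genes lay above, and the median was 0.15 against -0.01. As deposited, without that subtraction, 24 were higher in pup 3 and 39 lower, where 18% of protein-coding genes were higher. All 7 genes of eIF2 and eIF2B lay above 0 (median 0.33), as did 11 of 14 eIF3 genes (median 0.20), all 3 of eIF5A and eIF6 (median 0.25), 6 of 7 elongation factors (median 0.24) and 8 of 11 eIF4 genes (median 0.12). The same held for all 5 modifiers of elongation factors compared, the inhibitory kinase gene Eef2k among them (median 0.22), and for 6 of 8 genes of start codon selection (median 0.09). Below 0 lay all 4 eIF2 alpha kinases (median -0.04) and 3 of 4 4E-binding repressors (median -0.03). The repressor above 0 was Eif4ebp1, at 0.43.

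Transcript length moved with this difference. Over protein-coding genes the median relative difference was 0.33 for mean transcript lengths under 1000 bases, 0.11 from 1000 to 2000, -0.02 from 2000 to 3000 and -0.16 at 3000 or more. The translation factors in these bands had medians of 0.28 (6 genes), 0.27 (32), 0.03 (12) and -0.02 (13). Taken against the median of their own length band, 45 of 63 lay above 0, where 50% of protein-coding genes do, with a median of 0.12. On that basis the eIF2 alpha kinases changed sign, to a median of 0.12 with 3 of 4 above 0, and start codon selection had 4 of 8 above 0. Blood markers, of which 3 of 4 were detected, also differed, summing to 1616 TPM in pup 1 and 2303 TPM in pup 3 (median relative difference 0.68). The median relative difference was 0.40 for microglial, 0.29 for endothelial and 0.25 for forebrain markers, and -0.18 for neuronal and -0.13 for progenitor markers. The part of these cell types in the difference was not tested.

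**Figure D4:**
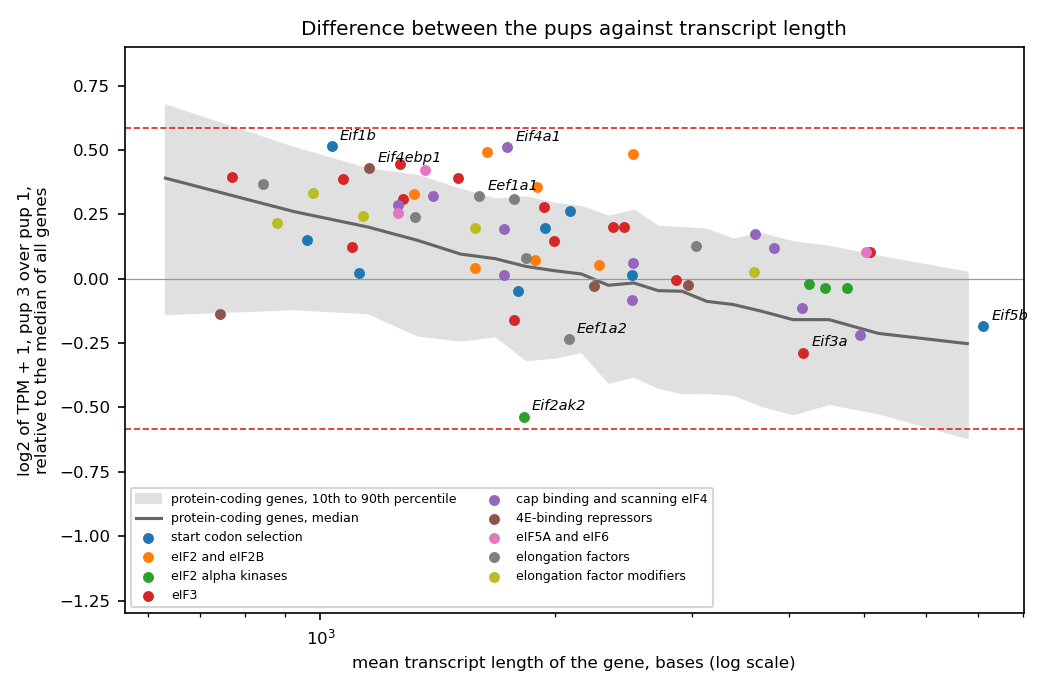
Relative log2 difference of pup 3 over pup 1 against mean transcript length in bases on a log axis, with a point for each of the 63 genes coloured by role, a line for the median and a band for the 10th to 90th percentile of protein-coding genes, and dashed lines at 1.5-fold. The line falls with length, all points lie between the dashed lines, and Eif2ak2 is the lowest point at -0.54.

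Other genes of the pathway were taken from lists by function. Cytosolic ribosomal protein genes, the bulk of the ribosome that these factors act on, had a median of 532 ± 78.2 TPM over 81 genes. All 78 compared lay above 0 relative to the all-gene median (median 0.53). Of these 78, 25 passed 1.5-fold higher, where 3.29% of all genes compared and no translation factor did. Those fold counts were not matched for transcript length. Against their length band, 75 of 78 lay above 0 with a median of 0.24.

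The 25 release, recycling and cofactor genes reached a median level of 34.4 ± 6.19 TPM, and 20 lay above 0 (median 0.11), none past 1.5-fold. The highest were Paip2, a repressor of poly(A)-binding protein, at 239 and 233 TPM, the poly(A)-binding protein gene Pabpc1 at 143 and 146, and Paip1, its partner that promotes translation, at 129 and 118. Genes of mTOR and MNK signalling to translation (16) had a median of 28.7 ± 2.62 TPM and lay 8 above and 8 below 0. They were led by Rps6, the ribosomal protein that S6 kinases phosphorylate, at 283 and 307 TPM, the mTORC1 activator Rheb at 277 and 272, and the kinase Akt1 at 96.7 and 92.7. In this list Tsc1, a repressor of mTORC1, passed 1.5-fold lower, at 13.9 and 6.13 TPM (-0.82).

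Targets and phosphatase genes of the integrated stress response, the programme that the eIF2 alpha kinases start, had a median of 16.9 ± 1.499 TPM, and 7 of 16 compared lay above 0 (median -0.01). The highest were Ppp1ca, the phosphatase catalytic subunit, at 455 and 469 TPM, the serine synthesis gene Phgdh at 132 and 118 and the asparagine synthetase gene Asns at 110 and 105. None passed 1.5-fold.

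Many mRNAs of the translation machinery are known to begin with a C and a run of pyrimidines, the terminal oligopyrimidine motif through which mTORC1 controls their use. RefSeq promoters (GRCm38.p6) were matched by symbol for 49 of the 65 genes. A start base of C followed directly by at least 4 bases that are each C or T occurred at the annotated start of 1 of the 49, Eif3f (2.04%), and of 3.01% of all 27025 symbols in that table. The search read the sense strand at the exact annotated base, so a start that lies a few bases away would be missed.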

How the data were processed

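PolyA RNA-seq was measured in 2 forebrains. Per the labels, the assembly is mm10. Which aligner and quantifier were run is not given in the sources used here, though the columns carry RSEM's names. The authors deposited expected counts, TPM, FPKM and, per transcript, the percent of the gene's TPM, as estimated from shared reads. The M21 tables were used, with M4 as an alternative. Symbols, classes and coordinates came from GENCODE M21. The genes and lists were chosen with earlier results of these data known.

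Differences used log2(TPM + 1) in genes with a mean of 1 TPM or more, and log2 ratios of pairs a pseudocount of 0.1. Past 1.5-fold was called after subtracting the all-gene median. Named genes were the 4 highest of each role group, all genes of pairs, those past 1.5-fold, those under 1 TPM, those at the ends of a complex, and the 3 highest of each pathway list; Eif2a, Eif3a, Eif4a3, Eif4e3, Eif5b and Eef1e1 and the transcript forms were chosen after their values were seen. Intervals are 95% Wilson for shares and conditional binomial for CPM ratios. They cover counting error alone, since reads carry no molecular identifiers here. Scripts were tested on simulated data. Tools were Python 3.11.15 with pandas 2.3.3, numpy 2.4.6, scipy 1.17.1 and Biopython 1.88, and R 4.3.3 with edgeR 4.0.16 (TMM) and DESeq2 1.42.0 (size factors), used for scaling only.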

Additional observations from a re-analysis of the deposited data

How the results depend on the processing

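With 1 group of 2 libraries there is no test, and 1 library for each pup limits every difference between them. No paired analysis was possible because the labels hold 1 group. The number of genes detected, 63 as reported, ran from 58 (at a minimum of 5 TPM) to 63 over the alternatives run, and the log2 ratio of Eef1a1 to Eef1a2, 7.70 as reported, ran from 7.30 (in expected counts) to 7.99 (without pup 1). The share of TPM was 1.25% as reported and 1.22% with posterior mean TPM. The median level of 66.9 TPM became 69.0 with annotation M4, 65.7 with posterior mean TPM, 45.0 in FPKM and 57.4 on protein-coding transcripts alone. The count of genes past 1.5-fold lower was 0 as reported and 1 (Eif2ak2) with a pseudocount of 0.1, on CPM with TMM scaling, DESeq2 size factors or no scaling, with no minimum level, and against the median of the same length band; the cause was not tested beyond the pseudocount, whose weight is greatest at low TPM. The median relative difference of the eIF2 alpha kinases was -0.04 as reported and 0.12 against their length band. With no minimum level, genes near 0 TPM shift the all-gene median, and 24 of 65 genes then lay above it. Among pair ratios (log2), Eif4a1/Eif4a2 was 1.14 as reported, 2.16 by the highest transcript and 3.62 on protein-coding transcripts. Eif5a/Eif5a2 was 7.41 as reported and 5.34 in counts, Eif4ebp2/Eif4ebp1 2.38 as reported, 3.42 in counts and 4.09 on protein-coding transcripts, and Eif3j1/Eif3j2 -1.38 as reported and -0.26 in counts. CPM without scaling, protein-coding transcripts alone and the length band as a basis for the 1.5-fold count were chosen after seeing the data.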
